A study of Mus musculus with 8 samples.

Results

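A set of 9 genes tied to p53 and to the response to alkylated DNA were followed in the distal colon of mice treated with azoxymethane (AOM), a carcinogen that alkylates DNA, and dextran sulfate sodium (DSS). The 9 genes were chosen by symbol, as *Trp53* itself, 7 genes known as p53 targets (*Mdm2*, *Cdkn1a*, *Ccng1*, *Bax*, *Bbc3*, *Trp53inp1* and *Phlda3*) and the repair gene *Mgmt*. All 9 were among the 15859 genes of the count table, and all 9 passed the filter on low counts. WT and *Hsf1* null male mice of a mixed BALB/c x 129SvEV background, with a whole-body loss of the transcription factor HSF1, were compared before treatment (day 0) and at day 15, with 2 mice in each of the 4 groups. Day 15 mice had received 10 mg/kg AOM by intraperitoneal injection at 8 weeks of age and, from day 7, 1.5% DSS in the drinking water for 5 days. Day 0 mice were not treated, so AOM, DSS and the recovery after them cannot be told apart. The labels give an age of 10 weeks for all mice. The treatment text of the labels ends directly after DSS, whereas the study places day 15 some days later.

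The tumor suppressor p53 is a transcription factor that is held at low levels by the ubiquitin ligase MDM2 and is stabilized when DNA is damaged, largely without a change of its own mRNA. Its targets arrest the cell cycle, start apoptosis or repair DNA, and *Mdm2* is itself a target, which closes a feedback loop. AOM is activated in the body to a methylating agent whose O6-methylguanine lesions are removed by the methyltransferase MGMT in a single step that uses up the enzyme.

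In the data, *Trp53inp1* mRNA fell between day 0 and day 15 in both genotypes, and *Phlda3* mRNA was higher in WT than in *Hsf1* null colon at day 15. No other gene of the 9 was called differentially expressed between the days within a genotype or between the genotypes within a day. A call needed an adjusted p under 0.05 in edgeR's quasi-likelihood test and an absolute log2 fold change above 1. *Trp53* and *Bax* were higher in every WT mouse than in every *Hsf1* null mouse but did not pass that test. A separation of the genotypes over all 8 mice, in either direction, was found for 5.66% of all genes. *Trp53inp1* was 1 of 9 genes called between the days, beside 7.74% of all genes in WT and 11.8% in *Hsf1* null mice. *Phlda3* was 1 of 9 between the genotypes at day 15, beside 3.17% of all genes. The *Phlda3* call and the *Trp53inp1* calls within a genotype were lost in some of the alternative fits given below.

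Binding of p53 to DNA runs through a decamer motif, a pair of which makes up a full response element. To show what lies directly upstream of the genes that the comparisons turn on, the 250 bases before the RefSeq start site are given for 5 of them on build GRCm38.p6, 5′ to 3′ on the strand of the gene, with each match to the p53 decamer consensus in capitals. *Trp53* lies on the plus strand (chr11:69580109-69580358), *Cdkn1a* on the plus strand at its upstream start (chr17:29090729-29090978), *Ccng1* on the minus strand (chr11:40755287-40755536), *Bax* on the minus strand (chr7:45466899-45467148) and *Phlda3* on the plus strand (chr1:135765835-135766084).
Trp53: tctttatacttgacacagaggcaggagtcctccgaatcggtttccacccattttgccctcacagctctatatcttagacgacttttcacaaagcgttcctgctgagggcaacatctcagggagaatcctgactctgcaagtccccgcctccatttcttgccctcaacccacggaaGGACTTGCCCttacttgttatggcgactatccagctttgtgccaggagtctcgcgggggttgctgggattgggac
Cdkn1a: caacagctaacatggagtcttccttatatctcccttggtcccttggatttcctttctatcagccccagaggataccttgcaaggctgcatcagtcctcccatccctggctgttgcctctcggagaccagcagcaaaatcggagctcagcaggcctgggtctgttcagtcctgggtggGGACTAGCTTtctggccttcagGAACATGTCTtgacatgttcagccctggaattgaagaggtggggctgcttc
Ccng1: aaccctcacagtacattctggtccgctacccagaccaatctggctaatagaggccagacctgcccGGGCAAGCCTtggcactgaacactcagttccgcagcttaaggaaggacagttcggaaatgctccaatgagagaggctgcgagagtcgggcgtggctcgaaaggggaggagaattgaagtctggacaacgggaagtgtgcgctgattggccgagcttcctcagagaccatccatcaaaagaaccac
Bax: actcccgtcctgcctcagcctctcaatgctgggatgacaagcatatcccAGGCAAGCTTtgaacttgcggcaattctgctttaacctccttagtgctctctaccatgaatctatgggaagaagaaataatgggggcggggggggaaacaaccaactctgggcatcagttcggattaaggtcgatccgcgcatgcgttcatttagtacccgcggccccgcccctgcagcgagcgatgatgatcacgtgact
Phlda3: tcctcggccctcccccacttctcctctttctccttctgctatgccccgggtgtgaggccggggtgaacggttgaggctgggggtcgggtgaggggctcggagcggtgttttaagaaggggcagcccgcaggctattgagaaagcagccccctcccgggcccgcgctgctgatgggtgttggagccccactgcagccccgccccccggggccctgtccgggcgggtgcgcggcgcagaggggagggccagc

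RefSeq gave an upstream sequence for 8 of the 9 genes, in 12 entries, all but *Trp53inp1*. A match to the p53 decamer, searched on both strands, was found upstream of 5 of these 8 genes. The upstream start of *Cdkn1a* had a pair of matches, which began at positions -73 and -51 counted from the start site. The single matches began at -75 in *Trp53*, -185 in *Ccng1*, -186 in *Mdm2* and -201 in *Bax*. Upstream windows of *Phlda3*, *Bbc3* and *Mgmt* held no match, which says only that the letters are not in these windows. Of all 32851 RefSeq promoters cut to the same length, 7.13% held at least 1 match.

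The core of the heat shock element, to which HSF1 binds, was searched in 2 forms on both strands. GAANNTTC was found in 6.69% of all promoters and TTCNNGAA in 7.17%. The upstream start of *Cdkn1a* held TTCNNGAA from position -56, where it shared bases with the second p53 decamer. The second start of *Mgmt* held both forms, overlapping each other, from position -156. No other of the 12 entries held either form. These matches are descriptions of the sequence and were not tested for binding.

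**Figure D1:**
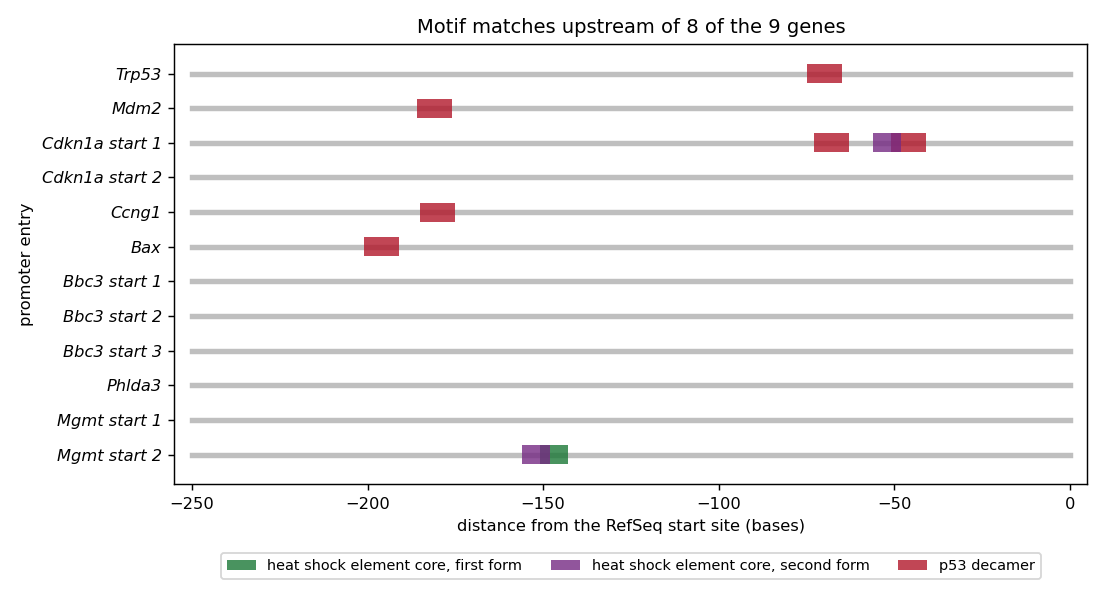
Motif matches in the 250 bases upstream of the RefSeq start sites of 8 of the 9 genes. The horizontal axis is the distance from the start site in bases, each grey line is 1 of 12 promoter entries, and coloured blocks are matches to the p53 decamer or to the 2 forms of the heat shock element core. Of the 12 entries, 5 hold a p53 decamer, and the upstream start of *Cdkn1a* alone holds a pair.

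Total counts per library ranged from 2553348 to 12440257, with the lowest totals in replicate 2 of both day 0 groups. *Hsf1*, in counts per 1000000 (CPM), stood at 36.5 to 50.4 over the 4 WT mice and at 9.09 to 14 over the 4 *Hsf1* null mice, so every library matched its genotype label. All 13 epithelial markers were found in every library. Summed CPM of 8 lymphocyte markers reached 3185 and 3517 in WT at day 15 against 238 and 467 in *Hsf1* null at day 15. Most of that gap was *Jchain*, the joining chain of secreted antibodies, at 2745 and 2613 against 46.8 and 237 CPM, while the other 7 markers summed to 440 and 904 against 191 and 230 CPM. Summed CPM of 6 neutrophil markers was 126 and 512 in WT at day 15, 6.2 and 22.6 in *Hsf1* null at day 15 and between 3.17 and 10.8 at day 0, and the granule gene *Ngp* was at 0 in every library outside WT day 15. In such bulk tissue, fewer cells of a type and less RNA per cell cannot be told apart.

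**Figure D2:**
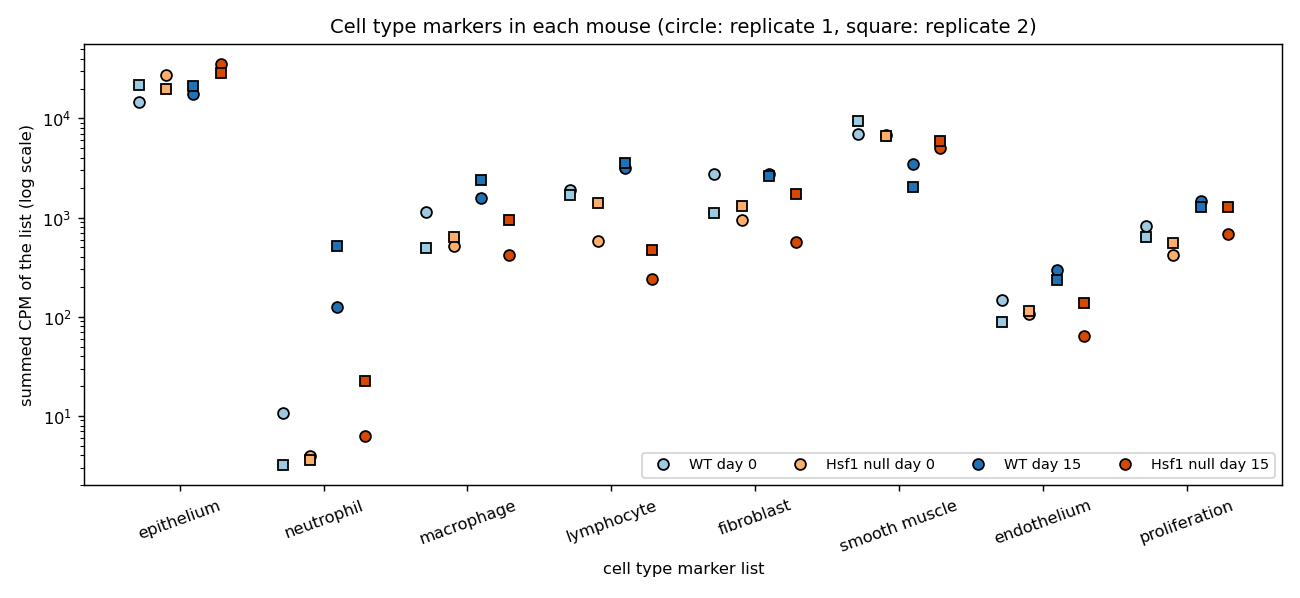
Summed CPM of 8 cell type marker lists in each of the 8 mice, on a log scale. Circles are replicate 1, squares are replicate 2, and colours are the 4 groups. Both WT day 15 mice lie above all other mice for neutrophil, macrophage, lymphocyte and endothelium markers and below all others for smooth muscle markers.

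The 9 mRNAs covered a wide range of levels. Per kilobase of exon sequence and averaged over all 8 mice, *Cdkn1a* was highest at 98.5 ± 49.9 CPM per kb (SD, n = 8), followed by *Bax* at 32.3 ± 9.98, *Ccng1* at 27.7 ± 12.7 and *Trp53* at 20.8 ± 5.63. *Phlda3* (14.7 ± 8.16), *Trp53inp1* (12.6 ± 6.74) and *Mdm2* (10.1 ± 1.86) came next. *Bbc3* at 2.25 ± 1.42 and *Mgmt* at 2.0 ± 0.675 CPM per kb were lowest. Between neighbours in this order the ranges over the 8 mice overlapped, except between *Mdm2* (lowest mouse 7.88 CPM per kb) and *Bbc3* (highest mouse 4.75). Relative to its mean *Mdm2* varied least over the 8 mice, with a coefficient of variation of 18.5%, and *Bbc3* (63.0%) and *Phlda3* (55.4%) varied most.

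*Trp53*, the gene of p53 itself (chromosome 11, 69580359 to 69591873 on GRCm38, as are all positions given here), lay higher in WT mice on both days. *Trp53* in untreated mice measured 105.5 and 98.8 CPM with WT genotype, against 65.7 and 56.4 CPM with *Hsf1* null genotype. *Trp53* in treated mice measured 113.1 and 101.9 CPM with WT genotype, against 66.8 and 64.1 CPM with *Hsf1* null genotype. The lowest WT mouse was thus well above the highest *Hsf1* null mouse, and day 0 and day 15 mice of a genotype lay side by side. The log2 difference, WT minus *Hsf1* null, was 0.74 ± 0.22 (SE) at day 0 (adjusted p = 0.775 in edgeR) and 0.72 ± 0.22 at day 15 (adjusted p = 0.0925).

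Averaged over both days, a comparison added after the values were seen, *Trp53* was 1.66-fold higher in WT (log2 difference 0.73 ± 0.15, 95% interval 0.39 to 1.07, adjusted p = 0.0524 in edgeR). The fold is under the threshold for a call whatever the p. Over the 7 comparisons tested across all genes, this is the one in which *Trp53* came nearest to a call, and DESeq2 gave it an adjusted p of 0.0112. Between the days the *Trp53* level did not differ beyond the spread of the mice, with a 95% interval of the log2 change of -0.41 to 0.55 in WT and of -0.39 to 0.58 in *Hsf1* null mice. Of the lymphocyte markers *Jchain* separated the genotypes in the same way, at 1617 to 2745 CPM over the 4 WT mice and 46.8 to 1378 CPM over the 4 *Hsf1* null mice. The other 7 overlapped, with sums of 54.0 to 904 CPM and 18.0 to 230 CPM, and the part of these markers in the difference was not tested.

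*Mdm2*, whose product marks p53 for degradation (chromosome 10, 117688875 to 117710758), showed no change that could be separated from the spread of the mice. *Mdm2* in untreated mice measured 57.6 and 40.5 CPM with WT genotype, against 49.0 and 69.3 CPM with *Hsf1* null genotype. *Mdm2* in treated mice measured 40.1 and 50.5 CPM with WT genotype, against 48.5 and 54.1 CPM with *Hsf1* null genotype. All 4 groups overlapped. The 95% interval of the log2 change from day 0 to day 15 was -0.76 to 0.50 in WT and -0.83 to 0.44 in *Hsf1* null mice, which leaves out a doubling in either genotype.

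**Figure D3:**
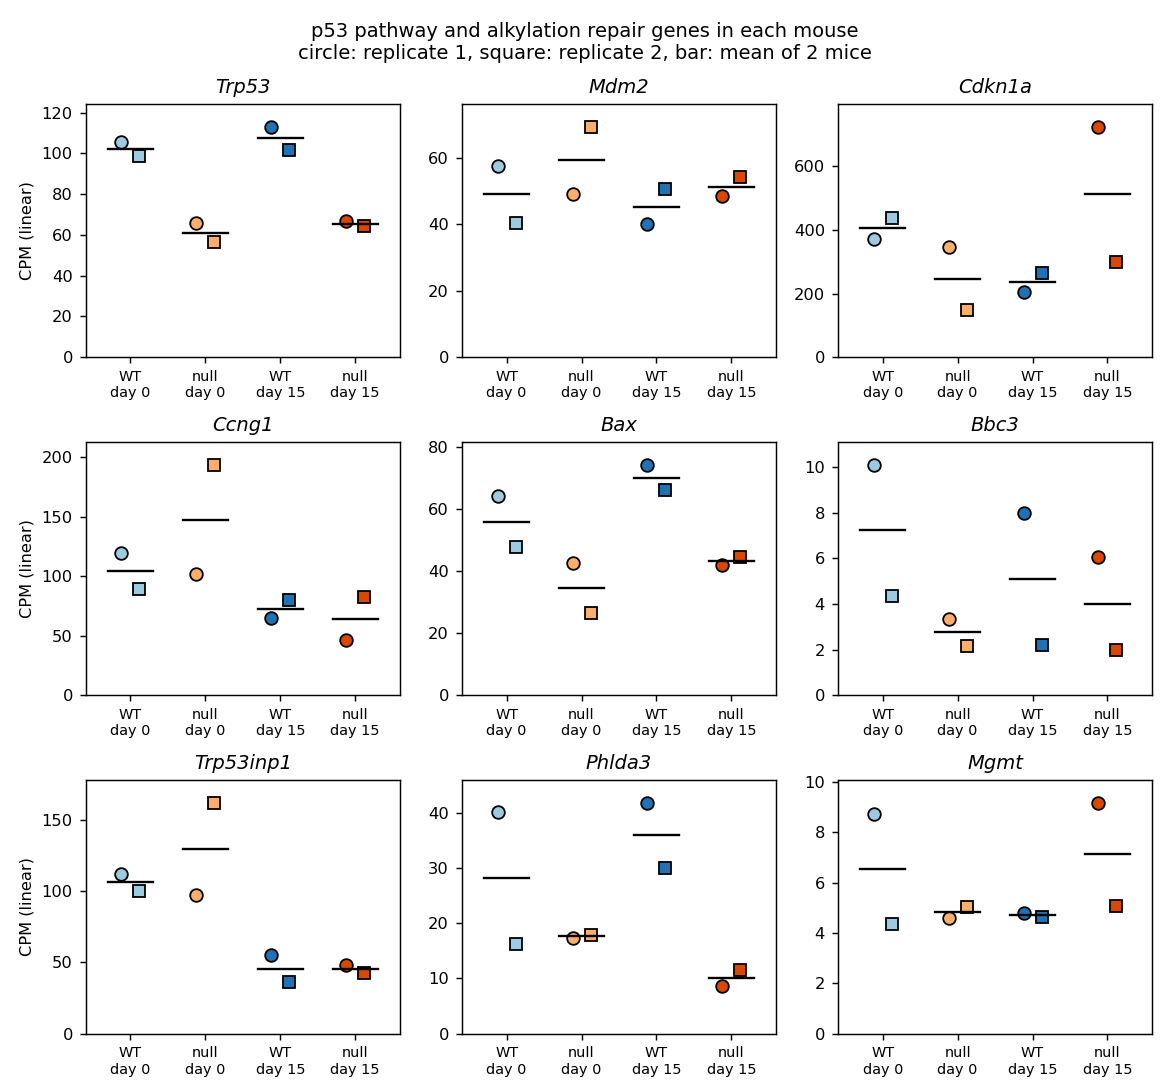
CPM of the 9 genes in each mouse, by group, on linear axes that start at 0. Circles are replicate 1, squares are replicate 2 and bars are the mean of 2 mice. *Trp53* and *Bax* lie higher in all 4 WT mice than in all 4 *Hsf1* null mice, and *Trp53inp1* lies lower in all 4 day 15 mice than in all 4 day 0 mice.

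*Cdkn1a* encodes p21, the cyclin-dependent kinase inhibitor through which p53 arrests the cell cycle (chromosome 17, 29090976 to 29100727). Its level was 372 and 438 CPM in WT mice at day 0 and 206 and 265.5 CPM at day 15. In *Hsf1* null mice it was 345.5 and 149 CPM at day 0 and 725 and 299.5 CPM at day 15. The WT mice at day 15 were below the WT mice at day 0 without overlap, whereas the *Hsf1* null groups overlapped and each held a pair of mice far apart. The log2 change was -0.78 ± 0.46 in WT (95% interval -1.81 to 0.25, edgeR adjusted p = 0.302) and 1.05 ± 0.46 in *Hsf1* null mice (adjusted p = 0.149).

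At day 15 *Cdkn1a* was 2.17-fold higher in the *Hsf1* null than in the WT mice (log2 difference, WT minus null, -1.12 ± 0.46, edgeR adjusted p = 0.184). The change differed between WT and *Hsf1* null mice by -1.83 ± 0.65 on the log2 scale. It had an edgeR p of 0.0189 and an adjusted p of 0.496, and a DESeq2 adjusted p of 0.144. Neither result was a call. At day 0 the order was the opposite, with WT mice narrowly above *Hsf1* null mice (log2 difference 0.71 ± 0.46, edgeR adjusted p = 0.833). Leaving out replicate 1 of *Hsf1* null day 15, the highest *Cdkn1a* value of all, took the day 15 difference to -0.36, the change in *Hsf1* null mice to 0.27 and the difference between the changes to -1.05. Without replicate 1 of *Hsf1* null day 0 the change in *Hsf1* null mice was 1.78 and the day 0 difference 1.44, and without replicate 2 of that group they were 0.57 and 0.23. The library with the highest *Cdkn1a* also had the highest summed epithelial markers, 35341 CPM. The sum was 28627.5 CPM in the other mouse of its group, whose *Cdkn1a* was 299.5 CPM, and 14808 to 27371 CPM elsewhere. The lowest sum, 14808 CPM, was in replicate 1 of WT day 0, whose *Cdkn1a* was 372 CPM. The part of these markers in the difference was not tested.

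*Ccng1* encodes cyclin G1, a p53 target that feeds back on p53 (chromosome 11, 40748552 to 40755311). *Ccng1* in untreated mice measured 119 and 88.9 CPM with WT genotype, against 102 and 193 CPM with *Hsf1* null genotype. *Ccng1* in treated mice measured 65.1 and 80.0 CPM with WT genotype, against 46.5 and 82.2 CPM with *Hsf1* null genotype. All 4 day 15 mice were below all 4 day 0 mice. The log2 change was -0.53 ± 0.36 in WT (edgeR adjusted p = 0.374) and -1.19 ± 0.37 in *Hsf1* null mice (edgeR adjusted p = 0.0584).

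Over both genotypes the *Ccng1* level was 1.81-fold lower at day 15 (log2 change -0.86 ± 0.26, 95% interval -1.43 to -0.28). Its adjusted p of 0.0324 in edgeR passed, but its fold was under the threshold for a call. In the *Hsf1* null comparison DESeq2 called *Ccng1* (adjusted p = 0.0151), as did edgeR without replicate 1 of *Hsf1* null day 0 (log2 change -1.58, adjusted p = 0.0341). Without replicate 2 of that group, the highest value, the change was -0.66 with an adjusted p of 0.402. Summed CPM of 7 smooth muscle markers also lay lower in all 4 day 15 mice (2042 to 5856 CPM) than in all 4 day 0 mice (6670 to 9516 CPM). Over both genotypes 5 of the 7 were called lower, beside 16.4% of all genes called in either direction. Within a genotype 5 of the 7 were called lower in WT mice and 0 in *Hsf1* null mice, with median log2 changes of -1.77 and -0.44. Their part in the *Ccng1* difference was not tested.

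*Bax*, whose product opens the outer mitochondrial membrane in apoptosis (chromosome 7, 45461697 to 45466898), followed the genotype as *Trp53* did. *Bax* in untreated mice measured 64.1 and 47.6 CPM with WT genotype, against 42.7 and 26.6 CPM with *Hsf1* null genotype. *Bax* in treated mice measured 74.1 and 66.0 CPM with WT genotype, against 41.9 and 44.4 CPM with *Hsf1* null genotype. The lowest WT mouse was above the highest *Hsf1* null mouse, here by a narrow margin. The log2 difference was 0.68 ± 0.29 at day 0 (edgeR adjusted p = 0.775) and 0.70 ± 0.28 at day 15 (edgeR adjusted p = 0.176). Over both days it was 0.69 ± 0.20 (1.61-fold, edgeR adjusted p = 0.101). *Bax* shares exon sequence on its own strand with the gene model *Gm45808*, which has no row in the count table.

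*Bbc3* encodes PUMA, a BH3-only protein that triggers apoptosis after p53 activation (chromosome 7, 16308393 to 16318205). Its counts were low, with 6 to 103 per library, and mice of a group differed, with 92 and 21 counts in WT at day 15. *Bbc3* in untreated mice measured 10.1 and 4.36 CPM with WT genotype, against 3.36 and 2.15 CPM with *Hsf1* null genotype. *Bbc3* in treated mice measured 8.00 and 2.22 CPM with WT genotype, against 6.05 and 2.0 CPM with *Hsf1* null genotype. The groups overlapped except for the genotypes at day 0, where WT and *Hsf1* null mice separated, WT higher (log2 difference 1.38 ± 0.77, edgeR adjusted p = 0.804, and 0.60 without replicate 1 of WT day 0). The 95% interval of the log2 change from day 0 to day 15 was -2.16 to 1.06 in WT and -1.26 to 2.20 in *Hsf1* null mice, so that a 2-fold change in either direction lies inside both intervals.

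*Trp53inp1* encodes a stress-induced protein that promotes p53 phosphorylation, cell death and autophagy (chromosome 4, 11156431 to 11174379). *Trp53inp1* in untreated mice measured 112 and 99.99 CPM with WT genotype, against 96.9 and 162 CPM with *Hsf1* null genotype. *Trp53inp1* in treated mice measured 55.2 and 36.2 CPM with WT genotype, against 47.9 and 42.5 CPM with *Hsf1* null genotype. The highest of the 4 day 15 mice was well below the lowest of the 4 day 0 mice. It fell 2.32-fold in WT (log2 change -1.22 ± 0.31, edgeR adjusted p = 0.0399) and 2.85-fold in *Hsf1* null mice (-1.51 ± 0.31, edgeR adjusted p = 0.0202).

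Over both genotypes the fall of *Trp53inp1* was 2.57-fold (log2 change -1.36 ± 0.22, 95% interval -1.85 to -0.88, edgeR adjusted p = 0.0030), and this call was made in each of the 8 fits that left out 1 library. The calls within a genotype rested on single libraries. The WT call was lost without replicate 1 of WT day 0 (adjusted p = 0.130), replicate 2 of WT day 0 (0.151) or replicate 2 of WT day 15 (0.238), with changes from -1.30 to -0.94. The *Hsf1* null call was lost without replicate 2 of *Hsf1* null day 0 (adjusted p = 0.166), replicate 1 of *Hsf1* null day 15 (0.0613) or replicate 2 of *Hsf1* null day 15 (0.0680), with changes from -1.59 to -1.10. The WT call was also lost with the replicate block (adjusted p = 0.0573) and with only the samples compared (0.0511). The fall did not differ detectably between genotypes (log2 difference of the changes 0.29 ± 0.43, 95% interval -0.66 to 1.25). Summed CPM of 12 proliferation markers moved the opposite way, from 422 to 830 CPM at day 0 to 690 to 1456 CPM at day 15. Smooth muscle markers moved the same way as *Trp53inp1*, from 6670 to 9516 CPM at day 0 to 2042 to 5856 CPM at day 15, as given for *Ccng1*. Of these 7 markers, 5 were called lower in WT mice and 0 in *Hsf1* null mice. The part of either list in the fall was not tested.

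*Phlda3* encodes a pleckstrin homology domain protein that competes with Akt for membrane lipids and so restrains Akt (chromosome 1, 135766119 to 135769136). *Phlda3* in untreated mice measured 40.1 and 16.3 CPM with WT genotype, against 17.3 and 18.0 CPM with *Hsf1* null genotype. *Phlda3* in treated mice measured 41.7 and 30.1 CPM with WT genotype, against 8.68 and 11.5 CPM with *Hsf1* null genotype. The *Hsf1* null mice at day 15 were the lowest of the series and did not overlap any other group, while the WT mice at day 0 spread from the *Hsf1* null level to the WT day 15 level. At day 15 *Phlda3* was 3.55-fold higher in WT (log2 difference 1.83 ± 0.42, 95% interval 0.90 to 2.76, edgeR adjusted p = 0.0478).

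This *Phlda3* call stood just inside the threshold. Its adjusted p rose to 0.0851 and 0.0846 without replicate 1 or 2 of *Hsf1* null day 0, to 0.118 and 0.122 without replicate 1 or 2 of WT day 15, and to 0.260 and 0.0650 without replicate 1 or 2 of *Hsf1* null day 15, with differences from 1.57 to 2.05. The direction was the same in each of these fits, and DESeq2 gave an adjusted p of 0.0016. It was 0.0609 with the replicate block, 0.0748 with counts of every library thinned to the lowest total and 0.0865 with only the samples compared. Over both days *Phlda3* was 2.41-fold higher in WT (1.27 ± 0.29, edgeR adjusted p = 0.0640), and the change in *Hsf1* null mice from day 0 to day 15 was -0.80 ± 0.42 (edgeR adjusted p = 0.218). The difference between the genotypes in the change from day 0 was 1.12 ± 0.58 (edgeR adjusted p = 0.632, and 1.94 on the log2 scale without replicate 1 of WT day 0), so the genotype difference was not shown to differ between the days. Summed fibroblast markers at day 15 were 2744 and 2619 CPM with WT genotype against 572 and 1735 CPM with *Hsf1* null genotype, summed macrophage markers were 1578 and 2392 against 415 and 956 CPM, and summed lymphocyte markers differed as given above. Their part in the *Phlda3* difference was not tested.

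*Mgmt*, the direct reversal enzyme for O6-methylguanine (chromosome 7, 136894614 to 137130266), was low throughout, with 11 to 89 counts per library. *Mgmt* in untreated mice measured 8.72 and 4.36 CPM with WT genotype, against 4.6 and 5.03 CPM with *Hsf1* null genotype. *Mgmt* in treated mice measured 4.78 and 4.64 CPM with WT genotype, against 9.15 and 5.08 CPM with *Hsf1* null genotype. Of the 8 mice, 6 lay between 4.36 and 5.08 CPM, and 1 WT mouse at day 0 and 1 *Hsf1* null mouse at day 15 stood above them. The 95% interval of the log2 change from day 0 to day 15 was -1.63 to 0.58 in WT and -0.56 to 1.70 in *Hsf1* null mice, and over both genotypes it was -0.77 to 0.81. A doubling of *Mgmt* over both genotypes is outside that interval, whereas one in *Hsf1* null mice alone is not. In *Hsf1* null mice both day 15 values lay above both day 0 values, narrowly.

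**Figure D4:**
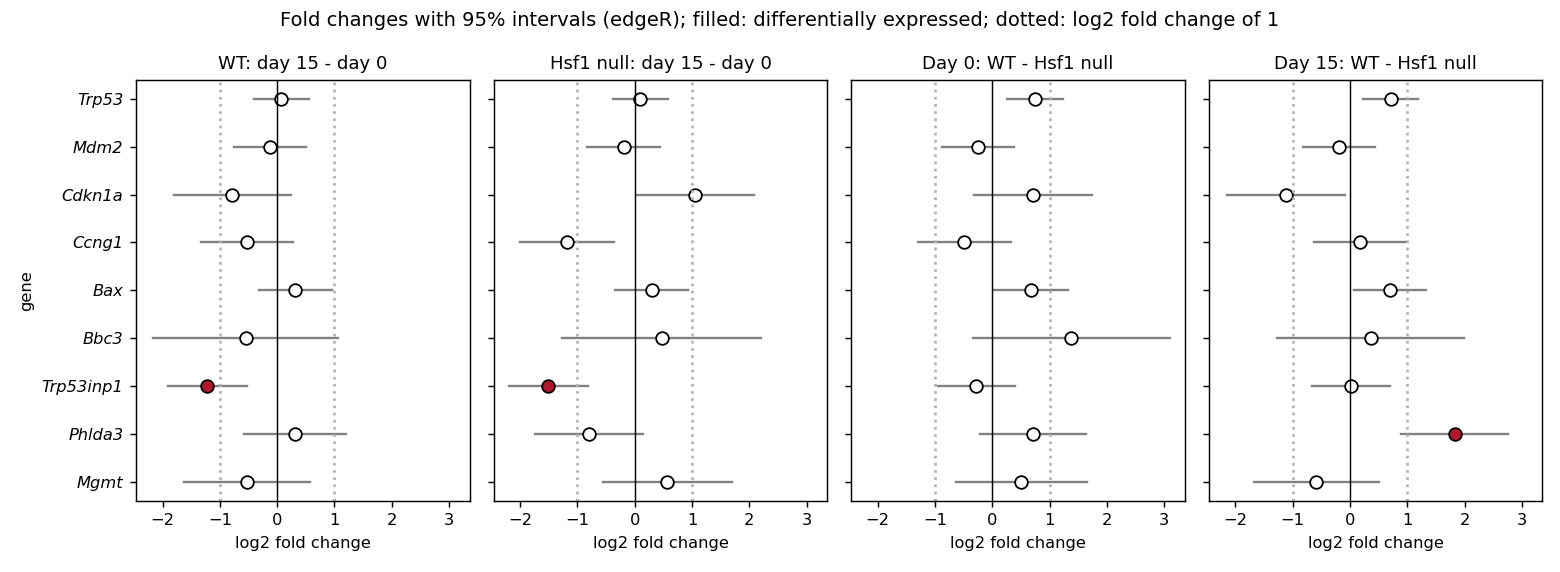
Log2 fold changes of the 9 genes in 4 comparisons, with 95% intervals from edgeR. The vertical line is no change, the dotted lines are a log2 fold change of 1 in either direction, and filled points are calls. The filled points are *Trp53inp1* in both changes from day 0 to day 15 (-1.22 in WT, -1.51 in *Hsf1* null) and *Phlda3* between the genotypes at day 15 (1.83).

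The counts of calls among the 9 genes were read beside those over all 14371 genes tested. From day 0 to day 15, 1 of the 9 genes was called in WT mice, where 7.74% of all genes tested were called, and 1 of 9 in *Hsf1* null mice, where 11.8% were called. Between the genotypes at day 15, 1 of 9 was called against 3.17% of all genes. At day 0, 0 of 9 were called by edgeR and 0 by DESeq2, against 0% of all genes in edgeR, and *Trp53* and *Bax* were the 2 with an unadjusted p under 0.05, which 6.29% of all genes had. Over both genotypes, 1 of 9 was called between the days against 16.4% of all genes. For the genotype difference in that change, 0 of 9 were called by edgeR and 0 by DESeq2, against 0.00696% of all genes in edgeR, with 1 of 9 (*Cdkn1a*) and 8.61% of all genes at an unadjusted p under 0.05. Between the genotypes over both days, 0 of 9 were called by edgeR and 1 (*Phlda3*) by DESeq2, against 1% of all genes in edgeR, with 3 of 9 and 22.3% of all genes at an unadjusted p under 0.05. The comparisons share mice, and the shares of the 9 genes were not tested against those of all genes.

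Groups of 2 mice often separate, so that counts of genes without overlap need the share over all genes beside them. The CPM ranges did not overlap for 4 of the 9 genes between the days in WT mice (62.5% of all genes), for 4 in *Hsf1* null mice (61.3%), for 5 between the genotypes at day 15 (54.8%) and for 4 at day 0 (37.1%). With 4 mice on each side, 2 of the 9 did not overlap between the days (*Ccng1* and *Trp53inp1*, 26.3% of all genes). Between the genotypes, 2 of the 9 did not overlap (*Trp53* and *Bax*, 5.66% of all genes). The median log2 fold change of the 9 genes was -0.53 in WT and 0.10 in *Hsf1* null mice from day 0 to day 15, beside 0.0046 and 0.052 over all genes.

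The 9 genes did not move as 1 block across the mice. Over their 36 pairs the Pearson correlation of log2 CPM across the 8 mice ran from -0.64 (*Cdkn1a* and *Ccng1*) to 0.90 (*Trp53* and *Bax*), with a median of 0.039 and 19 pairs above 0. *Ccng1* and *Trp53inp1* had a correlation of 0.79, and *Trp53* and *Phlda3* one of 0.76. These values describe 8 libraries that share 2 genotypes, 2 days and their depth, and have no test. The 3 other genes most like *Trp53* were *Zfpm1* (0.98), *Hsf1* (0.97) and *Shc1* (0.97), those most like *Cdkn1a* were *Cnppd1* (0.96), *Bcl11b* (0.94) and *Gm16576* (0.94), and those most like *Mgmt* were *BC022687* (0.94), *Faf2* (0.91) and *Il15ra* (0.90).

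The wider p53 program was followed in a list of 40 other known targets, of which 38 were in the table and tested. From day 0 to day 15, 1 was called higher and 1 lower in WT mice, and 3 higher and 1 lower in *Hsf1* null mice, beside 7.74% and 11.8% of all genes called in either direction. Over both genotypes 3 were called higher and 3 lower, so that 6 of 38 were called beside the 16.4% of all genes. Between the genotypes 1 of 38 was called at day 15, and at day 0 there were 0 calls by edgeR, 3 genes at an unadjusted p under 0.05 (6.29% of all genes) and 0 calls by DESeq2. The median log2 fold change of the 38 was 0.027 in WT and 0.16 in *Hsf1* null mice.

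A list of targets headed cell cycle arrest held 12 tested genes, among them the p53 regulator *Gtse1*. Of these 12, *Sfn*, which encodes 14-3-3 sigma and holds cells before mitosis, had the largest called rise over both genotypes. *Sfn* in untreated mice measured 63.0 and 93.6 CPM with WT genotype, against 71.1 and 34.8 CPM with *Hsf1* null genotype. *Sfn* in treated mice measured 309 and 330 CPM with WT genotype, against 157 and 237 CPM with *Hsf1* null genotype, above every day 0 mouse. *Sfn* rose 4.10-fold in WT (edgeR adjusted p = 0.0147) and 3.67-fold in *Hsf1* null mice (adjusted p = 0.0187), and 3.88-fold over both genotypes (log2 change 1.96 ± 0.26, adjusted p = 0.0017), the last in all 8 fits without 1 library. The log2 change of *Sfn* in *Hsf1* null mice was 2.50 without replicate 1 of *Hsf1* null day 0. *Gtse1*, a regulator of p53 in the G2 phase, was called higher in *Hsf1* null mice (3.43-fold, adjusted p = 0.0454) and over both genotypes (2.21-fold, adjusted p = 0.0316). The *Hsf1* null call of *Gtse1* was lost without replicate 1 or 2 of *Hsf1* null day 0 and without replicate 2 of *Hsf1* null day 15, in the last at a log2 change of 1.11 (edgeR adjusted p = 0.195), and its call over both genotypes was made in 3 of the 8 fits without 1 library. *Sulf2*, a heparan sulfatase, was called higher over both genotypes (3.12-fold, adjusted p = 0.0280), from 19.7 to 79.9 CPM at day 0 and from 22.5 to 187 CPM at day 15, with overlap. Its log2 change was 0.88 without replicate 2 of *Hsf1* null day 15 and 2.24 without replicate 1 of WT day 0, and the call was lost in 4 of the 8 fits without 1 library.

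Of 15 tested targets in metabolism and repair, *Steap3*, an endosomal iron reductase, fell 3.08-fold in WT mice (44.8 and 65.1 CPM at day 0, 23.1 and 12.1 CPM at day 15, edgeR adjusted p = 0.0245) and 2.13-fold over both genotypes (adjusted p = 0.00998). *Polk*, a translesion DNA polymerase, fell 2.83-fold in *Hsf1* null mice (22.6 and 25.5 CPM at day 0, 6.98 and 9.89 CPM at day 15, adjusted p = 0.0320) and 2.06-fold over both genotypes (adjusted p = 0.0162). *Rrm2b*, the p53-inducible subunit of ribonucleotide reductase, fell 2.4-fold over both genotypes (adjusted p = 0.0323). *Fdxr*, the ferredoxin reductase of mitochondria, rose 2.58-fold in *Hsf1* null mice (17.5 and 8.26 CPM at day 0, 35.7 and 33.4 CPM at day 15, adjusted p = 0.0383). Its log2 change was 2.06 without replicate 1 of *Hsf1* null day 0 and 0.98 without replicate 2 of that group (edgeR adjusted p = 0.207), and the call was made in 3 of the 8 fits. *Pltp*, a phospholipid transfer protein, was the single target of the 38 called between the genotypes at day 15, 2.50-fold higher in WT (140 and 132 CPM against 37.4 and 71.1 CPM, adjusted p = 0.0461). The *Pltp* call was made in 1 of the 8 fits without 1 library, that without replicate 2 of *Hsf1* null day 15 (log2 difference 1.86), and the difference was 0.93 without replicate 1 of that group. Its edgeR adjusted p was 0.0598 with the replicate block, 0.0546 after thinning and 0.122 with only the samples compared. The macrophage, fibroblast and lymphocyte markers given for *Phlda3* were also higher in WT at day 15, whereas summed epithelial and smooth muscle markers were lower. The part of these markers in the *Pltp* difference was not tested. Of the 11 tested targets that act in apoptosis 0 were called in any comparison by edgeR or DESeq2, with at most 3 at an unadjusted p under 0.05 (between the genotypes over both days, beside 22.3% of all genes), and *Perp*, a desmosome and death gene, had the smallest p in WT (log2 change -0.42 ± 0.25, edgeR adjusted p = 0.307).

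Repair of alkylated bases was followed in 16 genes of direct reversal and base excision repair. From day 0 to day 15, 2 of the 16 were called higher in WT mice and 2 in *Hsf1* null mice, and 3 over both genotypes, all higher, beside 7.74%, 11.8% and 16.4% of all genes called in either direction. *Fen1*, the flap endonuclease of long-patch repair and DNA replication, measured 12.1 and 10.7 CPM in untreated WT mice, against 13.4 and 11.1 CPM in untreated *Hsf1* null mice. *Fen1* in treated mice measured 40.5 and 50.2 CPM with WT genotype, against 21.5 and 36.6 CPM with *Hsf1* null genotype. It rose 3.93-fold in WT (edgeR adjusted p = 0.0123), 2.35-fold in *Hsf1* null mice (adjusted p = 0.0410) and 3.04-fold over both genotypes (adjusted p = 0.00248), the last in all 8 fits without 1 library. In *Hsf1* null mice the log2 change of *Fen1* ran from 0.80 to 1.56 without 1 library. That call was lost with the replicate block and with only the samples compared.

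*Lig1*, the replicative DNA ligase, was called with *Fen1*, at 2.16-fold in WT (edgeR adjusted p = 0.0453), 2.19-fold in *Hsf1* null mice (adjusted p = 0.0361) and 2.18-fold over both genotypes (adjusted p = 0.0051). The call over both genotypes fell under the fold threshold only without replicate 2 of *Hsf1* null day 15, at a log2 change of 0.91. *Alkbh2*, a demethylase that, like MGMT, reverses alkylation directly, was called higher over both genotypes (2.12-fold, adjusted p = 0.0386), with 3.59 to 7.25 CPM at day 0 and 5.82 to 16.0 CPM at day 15, but in 1 of the 8 fits without 1 library. Both *Fen1* and *Lig1* also act in DNA replication, and the proliferation markers that rose beside them were called in 3 of 12 genes in WT and 7 of 12 in *Hsf1* null mice. Their part in the rise was not tested.

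Of 10 mismatch repair genes, which act on O6-methylguanine paired with thymine, 1 was called, in *Hsf1* null mice from day 0 to day 15, where 11.8% of all genes were called. *Msh3*, a subunit of the complex that reads short loops, fell 2.53-fold in *Hsf1* null mice (15 and 14 CPM at day 0, 4.5 and 6.95 CPM at day 15, edgeR adjusted p = 0.0440), and this call was lost in each of the 8 fits without 1 library. Of the 2 genes that activate AOM or its products, *Cyp2e1* and *Adh1*, neither was called by edgeR in any comparison, and DESeq2 called *Adh1* in WT mice and between the genotypes at day 15. *Cyp2e1* ran from 0.211 to 87.1 CPM over the 8 mice, with WT day 15 mice at 75.1 and 0.211 CPM and *Hsf1* null day 15 mice at 0.620 and 79.0 CPM, so that mice of 1 group differed far more than the day 15 groups did. *Adh1* had a log2 change of -1.39 ± 0.53 in WT (edgeR adjusted p = 0.127).

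Among 15 tested regulators of p53, *Sirt1*, a deacetylase of p53, was the single gene called, 1 of 15 beside 11.8% of all genes in *Hsf1* null mice and 16.4% over both genotypes. It fell 2.28-fold in *Hsf1* null mice (edgeR adjusted p = 0.0441) and 2.02-fold over both genotypes (adjusted p = 0.0119), from 23.8 to 36.9 CPM at day 0 to 12.4 to 18.9 CPM at day 15, without overlap. Of 6 inhibitors of cyclin-dependent kinases other than *Cdkn1a*, 1 was called, in WT mice, beside 7.74% of all genes. This gene, *Cdkn2b*, which encodes p15, fell 2.66-fold in WT mice (40.5 and 42.5 CPM at day 0, 16.9 and 14.2 CPM at day 15, adjusted p = 0.0430), while *Hsf1* null mice had 41.6 and 46.7 CPM at day 0 and 62.6 and 28.2 CPM at day 15. In the Bcl-2 family and its partners, 20 genes tested of which *Pmaip1* and *Apaf1* also stand among the p53 targets, 2 of the 20 were called in *Hsf1* null mice and 2 over both genotypes, beside 11.8% and 16.4% of all genes. A called gene of this list is not reported here and is not in these counts. *Xiap*, an inhibitor of caspases, fell 2.56-fold over both genotypes (83.7 to 146 CPM at day 0, 32.1 to 56.4 CPM at day 15, adjusted p = 0.00287). This call was made in all 8 fits without 1 library, and the days did not overlap.

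Within *Hsf1* null mice *Xiap* fell 3.24-fold (edgeR adjusted p = 0.0156). In WT mice *Xiap* was also lower at day 15, at 42.2 and 56.4 CPM against 95.3 and 104 CPM at day 0. It was not called in WT mice. *Bcl2l1*, which encodes the survival protein Bcl-xL, rose 2.12-fold in *Hsf1* null mice (80.1 and 43.8 CPM at day 0, 135 and 131 CPM at day 15, adjusted p = 0.0421). *Bok*, a relative of *Bax*, was called higher over both genotypes (2.09-fold, adjusted p = 0.0204), with overlap between the days. Of the 16 calls among these other genes in comparisons of 2 mice against 2, 0 were made in all 8 fits that left out 1 library, and each was made in 0 to 6 of them. Of the 12 calls over both genotypes, 3 were (*Sfn*, *Fen1* and *Xiap*), and the others were made in 1 to 7, among them *Steap3* in 6, *Polk* in 5, *Sirt1* in 4, and *Rrm2b* and *Bok* in 3. Other settings also ended calls. Of the 16, 7 were lost with the replicate block (*Cdkn2b* and *Lig1* in WT mice, *Fen1*, *Gtse1*, *Msh3* and *Sirt1* in *Hsf1* null mice, and *Pltp*), and 5 after thinning (*Lig1* in WT mice, *Fdxr*, *Msh3* and *Sirt1* in *Hsf1* null mice, and *Pltp*). With only the samples compared 8 of the 16 were lost (*Steap3* in WT mice, *Bcl2l1*, *Fdxr*, *Fen1*, *Lig1*, *Msh3* and *Sirt1* in *Hsf1* null mice, and *Pltp*). Of the 12 over both genotypes, 2 were lost with the replicate block (*Alkbh2* and *Sulf2*) and 3 after thinning (*Gtse1*, *Sirt1* and *Steap3*).

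**Figure D5:**
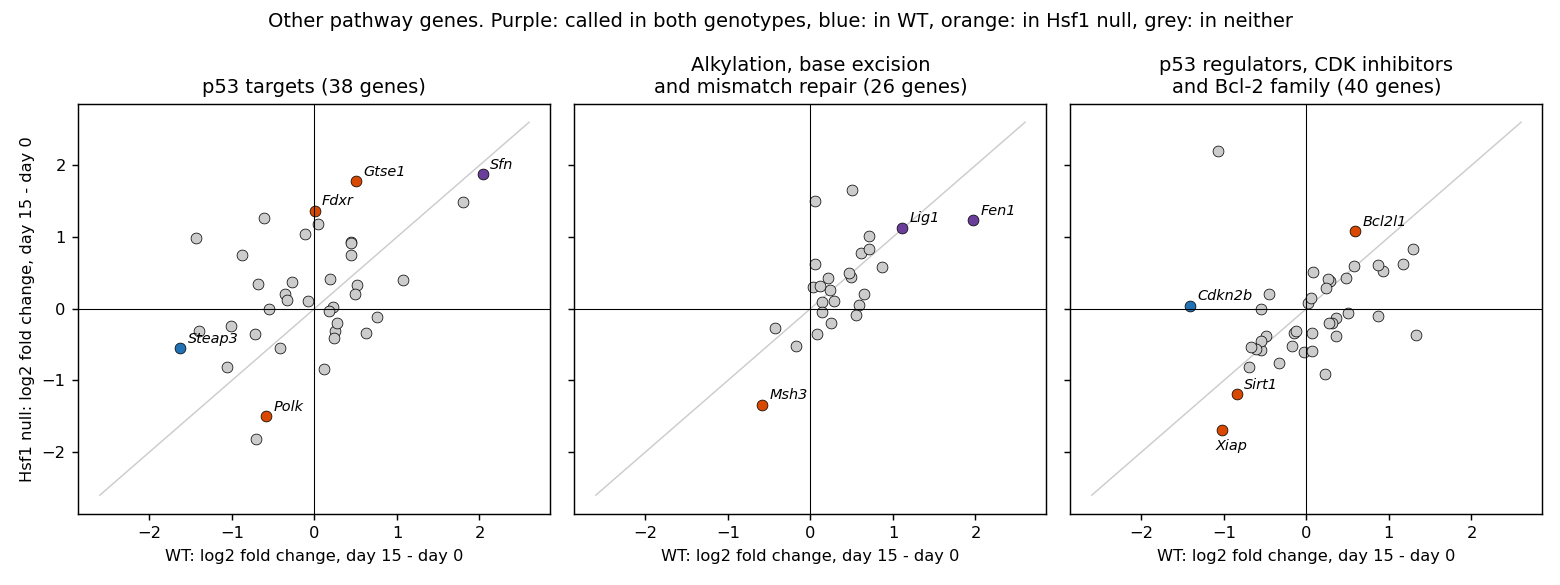
Log2 fold changes from day 0 to day 15 in WT (horizontal axis) and *Hsf1* null mice (vertical axis) for 38 other p53 targets, 26 repair genes, and 40 p53 regulators, kinase inhibitors and Bcl-2 family genes. Each point is 1 gene, *Pmaip1* and *Apaf1* stand in both the first and the third panel, purple points were called in both genotypes, blue in WT, orange in *Hsf1* null mice and grey in neither, and the grey diagonal is equal change. *Sfn*, *Fen1* and *Lig1* are called higher in both genotypes, and the other calls are made in 1 genotype.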

How the data were processed

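RNA from the distal colon of 8 mice, 2 in each of 4 groups taken from the labels, was sequenced as polyA-selected libraries. The authors aligned reads with STAR to mm10 and deposited raw counts per gene, and the counting program and annotation are not given in the sources used here. A second deposited table of normalized values was not used. The 14371 genes whose mean normalized count exceeded 5 were fitted in edgeR 4.0.16 (R 4.3.3) with TMM scaling and 1 quasi-likelihood model over all 4 groups. Calls needed a Benjamini-Hochberg adjusted p under 0.05 over all genes tested and an absolute log2 fold change above 1. Intervals are 95% intervals, and they and the p-values cover only the spread between these mice. DESeq2 1.42.0 served as an alternative, beside DESeq2 size factors, no filter, thinning to the smallest library, a replicate block, fits of only the samples compared and leaving out each library in turn. Comparisons within a day or genotype share groups and are not independent. The fits were tested on simulated data.

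CPM used total counts scaled by TMM. Exon lengths and positions came from GENCODE M21 (GRCm38), and upstream sequences of 250 bases from RefSeq (GRCm38.p6). The 9 genes, the gene lists and the marker lists were chosen with earlier results of these data known. Named genes are the 9, in each other list up to 4 called genes per comparison with the largest change or, with no call, the gene of smallest p in WT mice, *Hsf1* as the genotype check, and the 3 genes most correlated with *Trp53*, *Cdkn1a* and *Mgmt*. Outside that rule, *Cyp2e1*, *Ngp* and *Jchain* were chosen after their values were seen, and *Pmaip1*, *Apaf1* and *Gm45808* are named for a shared list and shared sequence. Replicates of a group differed beyond sampling noise (chi-square per degree of freedom 12.1 to 38.3), so that each mouse counted as 1 replicate. A called gene of the Bcl-2 family list is not reported here and was left out of the list's counts.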

Additional observations from a re-analysis of the deposited data

How the results depend on the processing

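Of 63 log2 values of the 9 genes, 29 were smaller than their standard error and carry no direction. The other 34 were recomputed under the alternative settings, which gave 506 values. Of these values 479 kept direction and side of the threshold, 17 lost a call, 7 gained one and 3 changed sign. *Mgmt* from day 0 to day 15 in WT ranged from -0.89 to 0.11 without 1 library (above 0 without WT day 0 replicate 1), *Phlda3* between the genotypes at day 0 from -0.11 to 1.17 (below 0 without WT day 0 replicate 1) and *Ccng1* between the genotypes at day 0 from -0.89 to 0.040 (above 0 without *Hsf1* null day 0 replicate 2).

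The count of called genes among the 9 was 1 in WT mice from day 0 to day 15, and 0 with the replicate block, 0 with only the samples compared and 0 to 1 without 1 library. In *Hsf1* null mice it was 1, and 2 with DESeq2, 2 after thinning and 0 to 2 without 1 library. Between the genotypes at day 15 it was 1, and 0 with the replicate block, 0 after thinning, 0 with only the samples compared and 0 to 1 without 1 library. Between the days over both genotypes it was 1, 2 with no fold threshold and 1 to 2 without 1 library, and between the genotypes over both days 0, 1 with DESeq2 and 0 to 1 without 1 library.

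Over all genes, DESeq2 called 1737 against 1112 in WT mice, 1208 against 455 between the genotypes at day 15, 18 against 0 at day 0, 644 against 144 over both days and 120 against 1 for the difference in change. With only the samples compared the counts were 6 at day 15 and 2 at day 0. With no fold threshold 4284 genes passed between the days against 2350. The difference in change had 2 calls with no filter, 2 with the replicate block and 4 after thinning, and the genotypes over both days had 25 with the replicate block. Same-numbered mice of groups that share a day or a genotype correlated at -0.29 to 0.15 in their deviations from the group means. Such correlations cannot show whether same-numbered mice share a batch, and replicate 2 of both day 0 groups had low total counts. The cause of the changes in the counts of calls was not tested. *Bbc3* and *Mgmt* had as few as 6 and 11 counts in a library, and the part of depth in their spread was not tested.

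Counts of called genes in the other lists that moved by over 1.5 times with DESeq2 were, against edgeR, 2 against 1 of the metabolism and repair targets, 2 against 0 of the Bcl-2 family and 1 against 0 AOM-activating genes in WT mice, and 4 against 2 arrest targets in *Hsf1* null mice. Between the genotypes at day 15 they were 2 against 0 arrest targets, 2 against 1 metabolism and repair targets, 1 against 0 kinase inhibitors and 1 against 0 AOM-activating genes, and over both days 1 against 0 arrest targets.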
